A study of Oryza sativa with 200 samples.

Results

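The 100 genes described here are those whose transcript level in rice leaves was lowest where that of OsLHY (Os08g0157600) was highest, in each of 2 field seasons. For every gene the level was expressed as CPM, its count as a share of the total count of the library, on a scale on which each library sums to 1000000. Pearson's r between log2(CPM + 0.5) of the gene and of OsLHY was computed over the 100 libraries of 2022 and over the 100 libraries of 2023, and the higher (less negative) of the 2 values was the score of the gene. The members are the 100 genes with the lowest score among 10233 ranked genes. Those were the 10235 genes whose mean reached 10 CPM over the 200 libraries, without OsLHY itself and 1 other gene of that size that the selection leaves out by name. The tables hold 37849 gene identifiers in all. The members were thus chosen by their measured r with OsLHY. That r, and with it the trend over the columns of the tables described below, follows from the choice, so it is given as a description and supports nothing.

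The plants were lines of JAM2, a population bred by intercrossing the Oryza sativa varieties Akidawara, Iwaidawara, Tachiharuka and Toyomeki and selfing the progeny, here in generation F5 in 2022 and F6 in 2023. The 100 lines were the same in both years, and each year is 1 group of 100 libraries with 1 library per line. Each line was transplanted as 33 seedlings into 1 plot of a paddy field, with no replicate plots and with chemical fertilizer that gave 56 kg of nitrogen per ha, and all lines of both years had this treatment. One leaf per line, the uppermost to be fully expanded, was sampled between 9:00 and 11:00 at 6 weeks after transplanting, on 1 July 2022 and on 29 June 2023. Year, generation, field and weather therefore cannot be told apart, and p-values between the years measure the spread over single leaves of different lines. Library totals ran from 3254834 to 37774023 counts in 2022 (median 7768777) and from 3729294 to 16881699 in 2023 (median 11272411). The leaf label was checked with markers. RCA, the Rubisco activase of the Calvin cycle, had a median of 31238 CPM in 2022 and 40582 CPM in 2023, while the mean of the root gene LSI2 over all libraries was 0.003 CPM and that of OSH1, a gene of dividing shoot tips, was 0.004 CPM. Not all planned markers of other tissues were silent. The second root gene, LSI1, reached a mean of 10 CPM. PCNA of dividing cells and 1 of the 2 flower genes MADS1 and MADS3 passed the filter on low counts, with means under 10 CPM. The check is therefore partial.

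OsLHY is a MYB transcription factor of the circadian clock. Its transcript is highest around dawn and declines during the morning, and in Arabidopsis its relatives LHY and CCA1 repress genes whose transcripts peak later in the day. Chlorophyll is made in the plastid from glutamate through tetrapyrrole intermediates, and genes of this pathway are known to follow light and the clock in leaves. Fewer transcripts per cell and fewer cells of a kind that expresses a gene cannot be told apart in RNA from whole leaves.

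OsLHY had between 315.5 and 1789 CPM in the libraries of 2022, with a median of 894, and between 948 and 2351 CPM in 2023, with a median of 1699. The years overlapped in the range from 948 to 1789 CPM, where 45 libraries of 2022 and 64 of 2023 lay. In 2022 the r of the members with OsLHY ran from −0.931 to −0.453 with a median of −0.72, and in 2023 from −0.737 to −0.441 with a median of −0.51. The median over all genes of at least 10 CPM was 0.02 in 2022 and 0.07 in 2023. For 90 of the 100 members the relation was weaker in 2023 than in 2022, so that the limit of the selection was set by 2023 for these 90. The slope (the log2 change of the member per doubling of OsLHY) had a median of −0.33 in 2022 and −0.50 in 2023, and it was steeper in 2023 for 86 members. Just inside the limit lay Os04g0596300 and Os10g0510400 with a score of −0.442 each and Os07g0608100 with −0.441. Just outside lay Os04g0514400 with −0.441, Os03g0699300 with −0.440 and Os07g0545300 with −0.439, so the limit falls within a continuum. The plot of r in the years shows the members at the corner of one broad cloud.

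**Figure D1:**
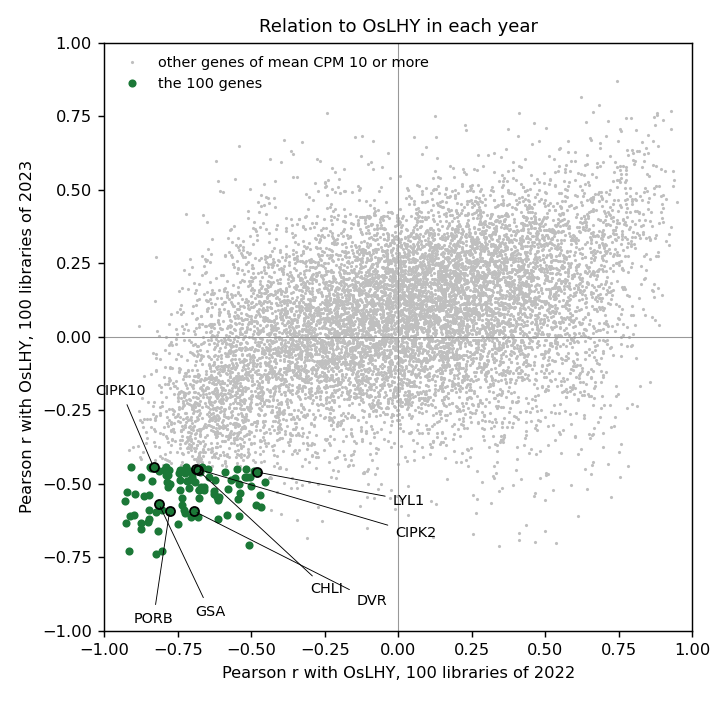
Pearson r with OsLHY over the 100 libraries of 2022 (horizontal axis) and of 2023 (vertical axis) for each gene whose mean reached 10 CPM. The 100 members (green) lie below −0.44 on both axes by selection, and the 7 members with a name are ringed and lie among the others.

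Of the 100 members, 7 could be tied to a gene name, and 5 of these encode enzymes of chlorophyll synthesis. The names GSA, LYL1, CIPK2 and CIPK10 were looked up after the values had been seen, so the make-up of the 7 is no finding. Of the 7 chlorophyll genes listed earlier and kept, 3 (CHLI, DVR and PORB) were members, while members make up 0.977% of all ranked genes. A name was used only where a reference table lists it on the chromosome of the locus in a compatible order, and the other 93 members are given by locus alone. The 5 are described in the order of the pathway.

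GSA (Os08g0532200) encodes glutamate-1-semialdehyde aminotransferase, which makes 5-aminolevulinic acid, the first precursor of all tetrapyrroles. Its level had a minimum, median and maximum of 144, 251.5 and 423 CPM in 2022 and of 99.2, 158 and 276 CPM in 2023. The ranges overlapped, but 97 of the 100 libraries of 2023 lay below the 2022 median. GSA was 0.53 lower in 2023 on the log2 scale (SE 0.052, adjusted p = 4.6e-19 by the quasi-likelihood test of edgeR, lower in 82 of 100 lines). Its r with OsLHY was −0.815 in 2022 and −0.567 in 2023.

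CHLI (Os03g0563300) encodes the small ATP-binding subunit of magnesium chelatase, the enzyme that commits a tetrapyrrole to chlorophyll rather than to heme. It had 151, 247 and 499 CPM in 2022 (minimum, median, maximum) and 145, 228.8 and 414.2 CPM in 2023, and the groups overlapped over nearly their whole range. The difference between the years did not pass the test (0.04, SE 0.056, adjusted p = 0.51 by edgeR), and subsets of lines passed in opposite directions. Its change was 0.49 among the 30 lines sequenced deepest in 2022 (adjusted p = 1.2e-05) and −0.15 among the other 70 (adjusted p = 0.030, both edgeR). Its r with OsLHY was −0.681 in 2022 and −0.454 in 2023.

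DVR (Os03g0351200) encodes the divinyl reductase, which reduces a vinyl side chain of the chlorophyll precursor. It had 60.0, 108 and 144 CPM in 2022 and 66.5, 95.2 and 136 CPM in 2023 (minimum, median, maximum), and 88 libraries of 2023 lay below the 2022 median. The year difference was small (−0.07, SE 0.032, adjusted p = 0.045 by edgeR, lower in 75 of 100 lines) and did not pass with DESeq2 (adjusted p = 0.063). DVR was also the 1 member with a positive r with OsLHY among the 30 deepest libraries of 2022 (0.150), against −0.626 among the other 70.

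PORB (Os10g0496900) encodes a protochlorophyllide oxidoreductase, the light-driven step that yields chlorophyllide. Its libraries ran from 530 through a median of 942 to 1632 CPM in 2022 and from 457 through 774 to 1388 CPM in 2023. PORB was 0.12 lower in 2023 (SE 0.054, adjusted p = 0.034 by edgeR, lower in 67 of 100 lines), a call that is lost without the filter on low counts (adjusted p = 0.066). In 2023 its slope on OsLHY was −0.77, against −0.41 in 2022.

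LYL1 (Os02g0744900) encodes geranylgeranyl reductase, which supplies the phytyl tail of chlorophyll. It had 1384, 1842 and 2466 CPM in 2022 and 1283, 1819 and 2694 CPM in 2023 (minimum, median, maximum). The medians by CPM were nearly the same and 50 lines lay lower, yet the fit, which rescales the libraries with TMM factors, placed LYL1 0.11 higher in 2023 (SE 0.038, adjusted p = 0.0058 by edgeR). With scaling by column totals the value was −0.01, so its direction depends on the scaling, which moved the median of all tested genes from −0.01 to −0.12.

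The values in the rest of the pathway were mixed. Of 15 genes of tetrapyrrole and chlorophyll synthesis with a kept name, of which 8 were added with values known, 5 were members and 13 had a negative r with OsLHY in both years. The sign of the 5 members, counted among the 13, is fixed by the choice. Of the 10234 genes of at least 10 CPM other than OsLHY, 4922 had a negative r in 2022 and 4043 in 2023. These are counts of single years. The count of all genes negative in both years is not given here, so the 13 has no like share beside it. Between the years 8 of the 15 were lower and 3 higher, against 37.4% and 39.4% of genes of at least 10 CPM. The other 4 did not pass, and the median change of the 15 was −0.07. HEMC (Os02g0168800), the porphobilinogen deaminase gene, was the nearest of the others in rank, at r = −0.719 and −0.379, and was 0.30 lower in 2023 (SE 0.043, adjusted p = 2.6e-10 by edgeR). PORA (Os04g0678700), the second oxidoreductase, was not a member because its r of −0.754 in 2022 stood beside −0.173 in 2023. CHLH (Os03g0323200), the large subunit of magnesium chelatase, had r = −0.467 and −0.249 and was 0.26 higher in 2023 (SE 0.049, adjusted p = 5.3e-07 by edgeR). The exceptions to the negative sign were YGL1 (Os05g0349700), the chlorophyll synthase, with 0.101 in 2023, and CAO1 (Os10g0567400), the chlorophyllide a oxygenase, with 0.169 in 2022.

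The other 2 named members encode protein kinases of the CIPK family, which bind calcineurin B-like calcium sensors. CIPK2 (Os07g0678300) had 34.3, 74.6 and 148 CPM in 2022 and 38.03, 63.2 and 133 CPM in 2023 (minimum, median, maximum), and CIPK10 (Os03g0339900) had 37.1, 71.1 and 137 CPM and 36.6, 70.6 and 123 CPM. Neither passed the test between the years (−0.07 with adjusted p = 0.25 and 0.08 with adjusted p = 0.19, edgeR). With the line number as a block CIPK10 passed as higher (0.12, adjusted p = 0.033).

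In the other gene lists no gene with a kept name was a member, but for photosystem genes this says little. Of 17 photosystem pairs of name and locus 14 were not kept, and 4 of those 14 loci are members that are given by locus alone. Of the 3 chlorophyll pairs not kept, 2 loci are members as well. Among the 3 kept photosystem genes CAB1R (Os09g0346500), a chlorophyll a/b-binding protein gene, came close with r = −0.799 and −0.437 and a rank of 109. Of the 6 kept clock genes other than OsLHY 5 reached 10 CPM and could be ranked, and 0 of these were members. PRR1 (Os02g0618200), the pseudo-response regulator that acts in the evening, had r = −0.265 and −0.268. RCA (Os11g0707000) had the opposite sign, with r = 0.866 and 0.666.

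The members without a name spanned a wide range of levels. The mean over all libraries ran from 10.2 CPM for Os02g0173700 to 7607 CPM for Os07g0558400. Os07g0558400 had 5086 to 13618 CPM in 2022 (median 8284) and 3950 to 10447 CPM in 2023 (median 6953). It was followed by Os06g0320500 with medians of 5457 and 4930 CPM, Os07g0577600 with 3952 and 3422 CPM and Os01g0279100 with 3049 and 2373 CPM. All 4 had a lower median in 2023, and all but Os06g0320500 (−0.06, SE 0.047, adjusted p = 0.24) passed as lower, by 0.14 to 0.23 on the log2 scale with edgeR.

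The 15 members with the lowest score had r from −0.927 to −0.615 in 2022 and from −0.737 to −0.606 in 2023. At the head stood Os03g0322600, which varied little, from 118.9 to 210.1 CPM in 2022 (median 160) and from 118.99 to 204.1 CPM in 2023 (median 142). Its r was −0.823 and −0.737 with slopes of −0.21 and −0.37. The second, Os03g0300600, spanned 16.4 to 97.7 CPM in 2022 (median 44.1) and 18.8 to 75.7 CPM in 2023 (median 27.3), with slopes of −0.54 and −1.06. Os08g0344600 had the steepest slope of the 15 in 2022, −0.94, with −1.04 in 2023, and r = −0.927 and −0.634. The scatter of 4 members against OsLHY shows that the libraries of both years lay along one band for some members and along 2 separate bands for others.

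**Figure D2:**
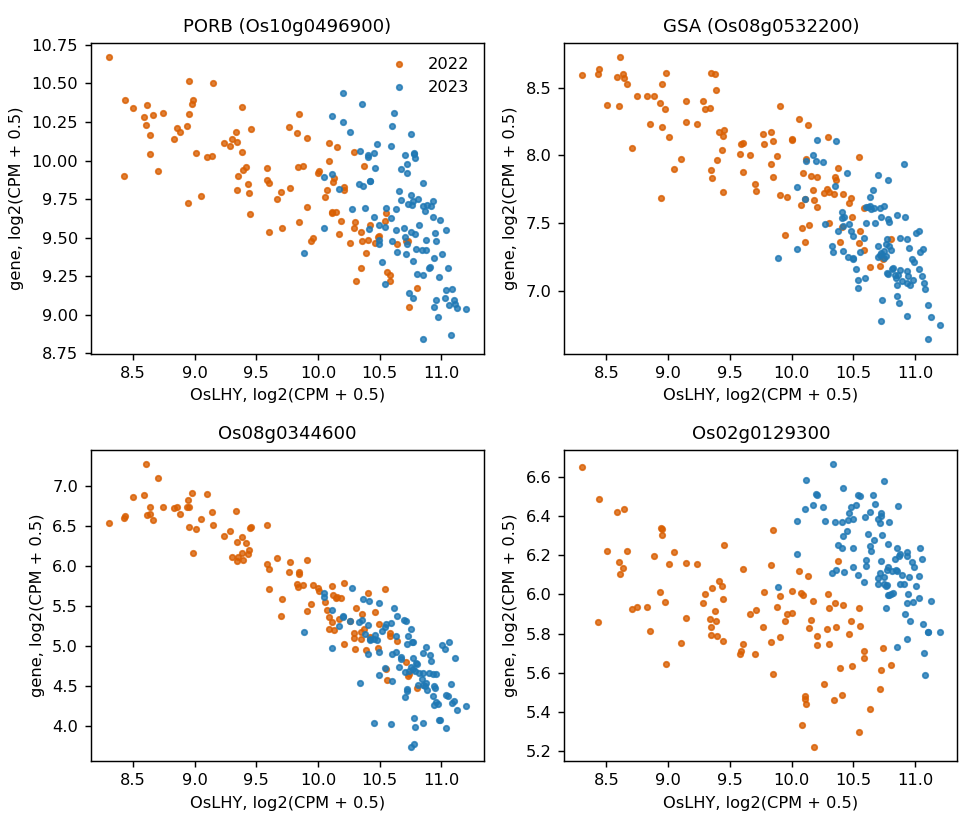
Level of 4 members against that of OsLHY, both as log2(CPM + 0.5), with 1 point per library in 2022 (orange) and 2023 (blue). For Os08g0344600 and GSA the 2 years continue each other, whereas for Os02g0129300 the 2023 libraries lie above those of 2022 at the same OsLHY level.

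The members also varied with each other. The median r between pairs of members was 0.57 in 2022 and 0.35 in 2023, over 4950 pairs, and 100% and 94.0% of the pairs had a positive r. After the linear part shared with OsLHY was removed the median was 0.10 in 2022 and 0.09 in 2023, with 65.2% and 60.7% of pairs positive. The first principal component held 57.2% of the members' variance in 2022 and 35.7% in 2023. Since each member was chosen through OsLHY, these pair values are descriptive. The spread between lines was larger in 2022 than in 2023 for 83 of the 100 members, against 55.7% of all genes of at least 10 CPM. That of OsLHY itself was larger in 2022 as well. Since the members were chosen to vary with OsLHY, the count of 83 follows in part from the choice.

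Chromosome 3 held 25 of the members, while it held 14.6% of all ranked genes. There were 5 pairs of members within 10 identifiers of each other on the chromosome, among them Os08g0344600 with Os08g0345400 and Os03g0411300 with Os03g0412800. The latter pair had r = 0.873 in 2022 and 0.526 in 2023, which follows in part from the choice of both genes through OsLHY. How many such pairs occur among all ranked genes is not given here, so the count of 5 is no result about the members.

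Levels went along with column position in the deposited tables, and they did so differently in the years. What the column order stands for, such as the order of sampling, of extraction or of the plots, is not given in the sources used here. In 2022 OsLHY climbed along the columns, with r = 0.962 between its level and the position and with medians over blocks of 10 columns from 394 CPM in columns 1 to 10 to 1522 CPM in columns 91 to 100. All 100 members went the other way, with r from −0.936 to −0.392 and a median of −0.70. The median of the last 25 columns was below that of the first 25 for every member, at 67.5% of it for the median member. The extreme was Os07g0529600, which was picked out after its values were seen, with 717 CPM in the first 25 columns and 79.1 CPM in the last 25. PORB passed from 1194 to 717 CPM and GSA from 338 to 200.

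In 2023 the r with position over the whole table was 0.041 for OsLHY and had a median of −0.06 for the members. Single members differed, from −0.430 to 0.340, with 13 beyond 0.3 in size, GSA at −0.313 among them. Along the table OsLHY and the mean of the members moved in opposite directions. The median of OsLHY over blocks of 10 columns began at 1966 CPM, reached its lowest value of 1319 CPM in columns 41 to 50, stood at 1995 CPM in columns 61 to 70 and ended at 1644 CPM. The mean of the members, as a log2 deviation from their average of the year, was −0.10 in columns 1 to 10, 0.18 in columns 41 to 50 and −0.18 in columns 61 to 70. Within columns 1 to 50 OsLHY had r = −0.821 with position and all 100 members had a positive r, from 0.061 to 0.764. In columns 51 to 100 OsLHY had r = 0.053 and the members a median of −0.02.

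**Figure D3:**
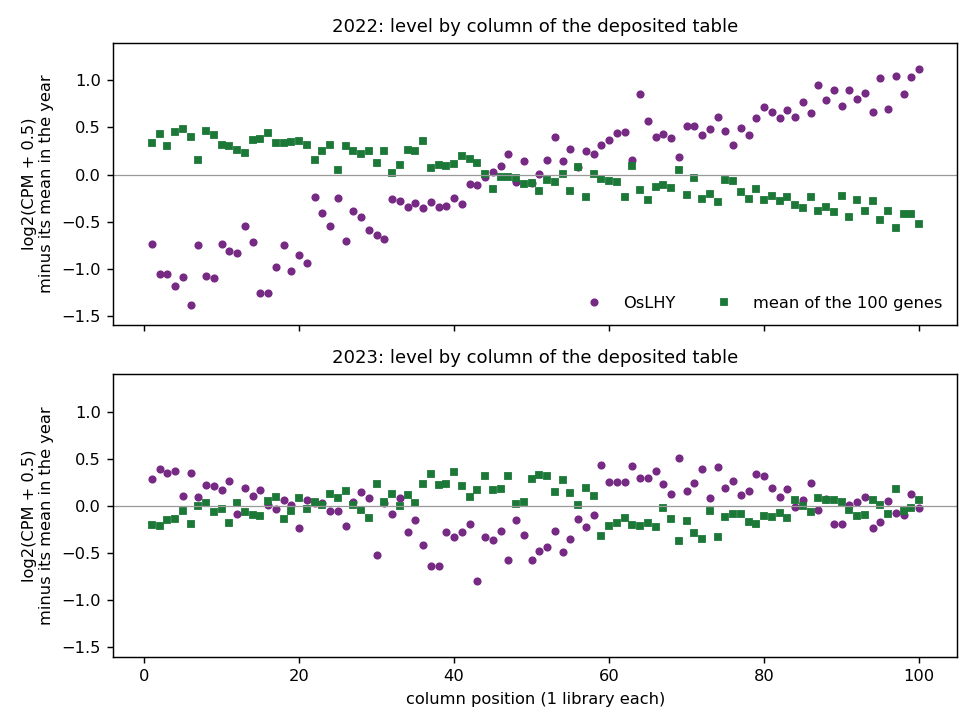
Level of OsLHY (purple) and mean of the 100 members (green) in each library, as log2(CPM + 0.5) minus the average of the year, by column position in the table of 2022 (top) and 2023 (bottom). In 2022 the members lie above OsLHY at the start of the table and below it at the end, and in 2023 they mirror each other, with OsLHY lowest and the members highest near columns 41 to 50.

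With a linear and a quadratic trend over the columns removed from every gene, the median r of the members with OsLHY was −0.23 in 2022 and −0.50 in 2023. It was negative for 96 members in 2022 and for all 100 in 2023, and the 4 exceptions, CIPK10, Os02g0129300, Os03g0644400 and Os05g0157300, lay between 0.018 and 0.058. Of the 10234 genes of at least 10 CPM other than OsLHY, 3670 were negative in 2022 and 3956 in 2023 with the trend removed. Within columns 51 to 100 of 2022 the r was negative for 99 members, against 4121 of those 10234 genes, and for Os02g0815200 it was 0.010. These r come from the same libraries that chose the members, so their sign follows in part from the choice. Column position also went with other quantities. Line numbers ran down the columns in 2022 (r = −0.743) and up in 2023 (r = 0.729), and the 30 deepest libraries of 2022 all lay in columns 52 to 100. OsLHY had r = 0.468 with the log2 of the library total in 2022 and −0.081 in 2023, and the members had a median of −0.35 and 0.02. The part of depth and of line in these relations was not tested.

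The selection also depends on how libraries are scaled. With TMM factors (a scaling that limits the weight of a few abundant genes) in place of the column totals, 50 of the 100 genes were chosen again. All 100 kept a negative r with OsLHY in both years under that scaling, with a median of −0.65 in 2022 and −0.44 in 2023. With the column trend removed, 27 of the 100 were chosen again.

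Between the years most members were lower in 2023, the year in which OsLHY was higher. OsLHY itself was 0.99 higher in 2023 on the log2 scale (SE 0.071, edgeR), and 68 of the 100 members were lower at an adjusted p under 0.05 against 37.4% of all genes of at least 10 CPM. Another 9 members were higher, against 39.4% of those genes. Over all 18674 genes tested the shares were 36.9% lower and 34.3% higher. The median change of the members was −0.20 and that of genes of at least 10 CPM was 0.01. All 100 members passed the filter on low counts, which acts on the level in either year.

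The falls were mostly of modest size. At least 0.5 on the log2 scale was reached by 15 falling members, against 3.83% of genes of at least 10 CPM (6.24% of all tested), and at least 2-fold by 2, against 0.489% (0.841% of all tested). No member had ranges in the years that failed to overlap, and 23 were lower in 90 or more of the 100 lines. The shares of all genes for these counts are not given here, so they are no result about the members. Counts of lines rest on column totals, with which 55.4% of genes of at least 10 CPM were called lower.

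The largest fall was that of Os08g0344600, with 21.8 to 155 CPM in 2022 (median 57.1) and 12.9 to 52.2 CPM in 2023 (median 27.7). All 100 libraries of 2023 lay below the 2022 median, and the change was −1.07 (SE 0.080, adjusted p = 2.4e-28, edgeR). Os03g0758900 had 7.04 to 35.3 CPM (median 17.7) and then 4.44 to 18.9 CPM (median 8.06), a change of −1.05 (SE 0.061, lower in 96 of 100 lines). Os03g0411300 followed with −0.96 (SE 0.102) and Os02g0788500 with −0.86 (SE 0.055). Os01g0618100 was lower in each of the 100 lines, with 69.7 to 199 CPM in 2022 (median 129) and 33.9 to 120 CPM in 2023 (median 62.6) and a change of −0.83 (SE 0.047, adjusted p = 1.2e-40, edgeR). Os05g0157300, Os01g0676200 and Os04g0576500 completed the 8 largest falls at −0.79, −0.69 and −0.65. Of the 8, those of Os08g0344600, Os03g0411300 and Os01g0676200 had slopes of −0.69 or steeper on OsLHY in 2022.

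The largest rise was that of Os02g0129300, from 36.9 to 99.8 CPM in 2022 (median 59.3) to 47.5 to 101.02 CPM in 2023 (median 71.8). It was 0.40 higher (SE 0.038, adjusted p = 5.5e-20, edgeR), and 21 of 100 lines went the other way. Its r with OsLHY was −0.615 and −0.619, so it was lower where OsLHY was higher within each year and higher in the year of higher OsLHY. Os02g0527300 rose by 0.29 (SE 0.040), Os03g0136200 by 0.25 (SE 0.035) and Os05g0395000 by 0.19 (SE 0.043). Os01g0812900, Os10g0111800 and Os09g0565200 rose by 0.12 to 0.13, with 49 to 50 of the lines lower by CPM in 2023. Scaled by column totals, Os05g0395000 (0.07) and these 3 (0.00 to 0.02) did not pass.

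With the log2 CPM of OsLHY as a covariate in the fit, the direction of the year difference turned for most members. Then 11 members were lower in 2023 against 29% of genes of at least 10 CPM, 65 were higher against 30.1%, and the median was 0.18. The 3 lowest values were −0.39 for Os03g0758900, −0.36 for Os02g0788500 and −0.30 for Os01g0618100, and all 3 passed the test. Os08g0344600 was at 0.09 (adjusted p = 0.19) and GSA at 0.01 (adjusted p = 0.86), while PORB was at 0.32 (adjusted p = 3.9e-05, all edgeR). The largest value was 2.29 for Os07g0529600, which had medians of 182 CPM in 2022 and 247 CPM in 2023 and a year difference of −0.12 (adjusted p = 0.44) without the covariate. OsLHY differs in its level and range between the years and the covariate assumes 1 slope for both, while 86 slopes were steeper in 2023. Every member was chosen for a negative r with OsLHY, and OsLHY was higher in 2023. The upward shift under the covariate therefore follows from the choice and is given as a description.

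**Figure D4:**
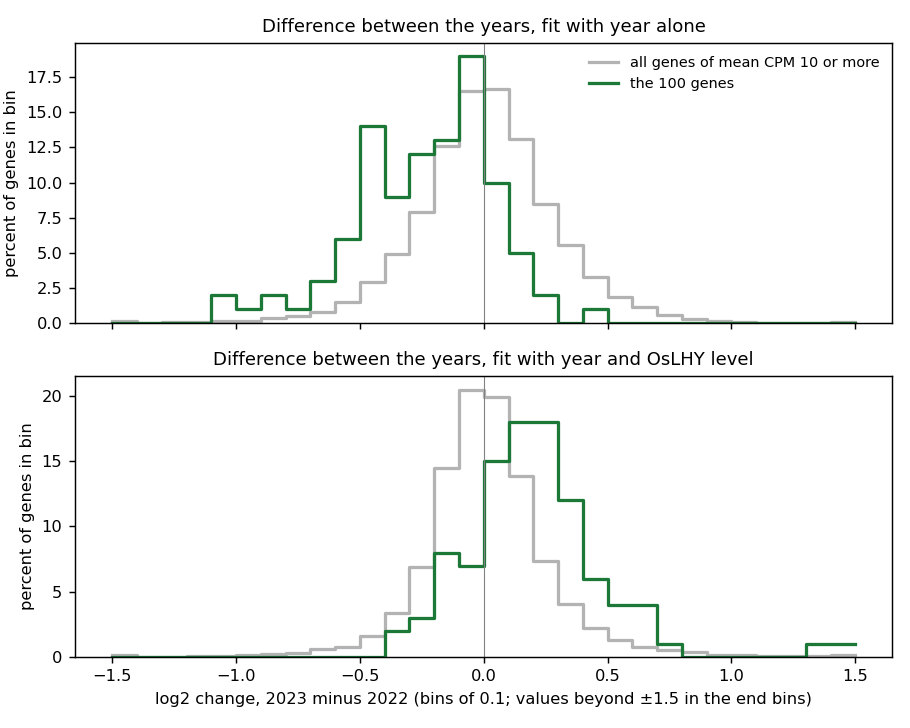
Share of genes by log2 change from 2022 to 2023 for the 100 members (green) and all genes of at least 10 CPM (grey), in the fit with year alone (top) and with the OsLHY level as covariate (bottom). The members' median lies at −0.20 in the upper panel and at 0.18 in the lower one, and that of all genes is at 0.01 and 0.00. The upward shift of the members follows from their choice, and their median in the upper panel is not independent of it.

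The count of members called also differed between subsets of lines, in the order of the OsLHY difference in each. In the 30 lines with the deepest 2022 libraries, where OsLHY was 0.45 higher in 2023, 19 members were lower and 38 higher, against 26.8% and 29.9% of genes of at least 10 CPM. In the 50 lines with the lower numbers, where OsLHY was 0.57 higher, 31 were lower and 28 higher, against 29.8% and 31.8%. In the other 70 lines OsLHY was 1.30 higher, 84 members were lower and 3 higher, against 36.4% and 38.8%. In the 50 lines with the higher numbers OsLHY was 1.54 higher, 87 members were lower and 3 higher, against 33.9% and 39.7%. In the first of these subsets PORB was 0.25 higher (adjusted p = 0.027) and GSA was at −0.04 (adjusted p = 0.73, both edgeR). The subsets overlap, share lines and differ in size, and the difference between them was not tested. The members were chosen to be lower where OsLHY was higher within a year. The order of the subsets therefore follows in part from the choice and is given as a description.

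**Figure D5:**
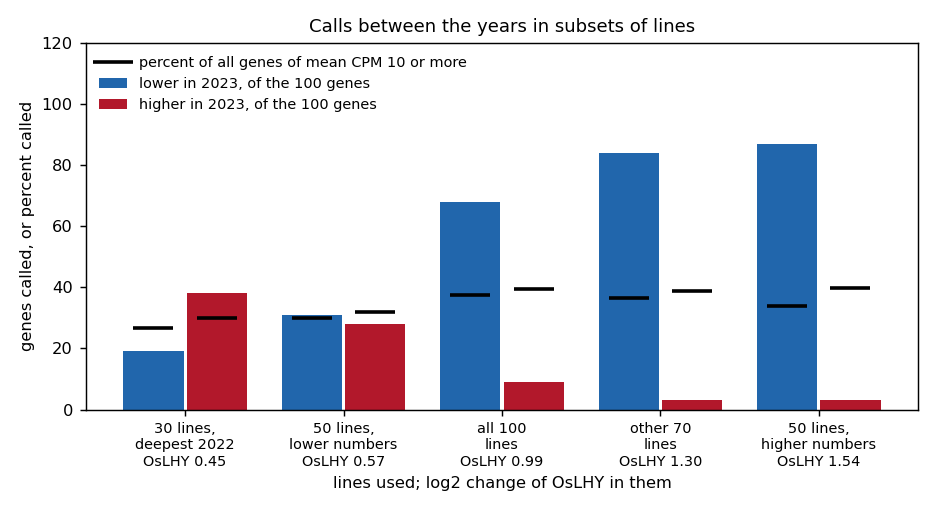
Number of the 100 members called lower (blue) and higher (red) in 2023 at an adjusted p under 0.05 in 5 sets of lines, ordered by the log2 change of OsLHY in the set, with the percent of all genes of at least 10 CPM called the same way as black bars. The members lower in 2023 number 19, 31, 68, 84 and 87 from left to right. This order follows in part from the choice of members.

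Whether differences between lines recurred from one year to the next was read from the pairing of lines, which the selection did not use. Each member was, however, chosen to go against OsLHY in both years. Its r between years therefore depends in part on how the level of OsLHY recurred over the lines, and the counts are given as a description. The r of a gene between its 2022 and 2023 levels over the 100 lines was above 0 at an adjusted p under 0.05 for 16 members, against 26.2% of the 10235 genes of at least 10 CPM (two-sided permutation test, 100000 permutations). Its median was 0.11 for the members and 0.14 for those genes. With the column trend removed 32 members were called, against 32.5%. The highest value was that of Os01g0618100 (r = 0.391, rho = 0.29, permutation p = 6e-05, adjusted p = 0.00058, 0.39 without the 2 farthest lines). Next came Os01g0817700 with 0.360, Os12g0624000 with 0.344, Os10g0111800 with 0.337 and Os02g0527300 with 0.318, all with an adjusted permutation p of at most 0.0083. The lowest was Os09g0270900 at −0.240 (rho = −0.24, adjusted permutation p = 0.057), and none of the 5 chlorophyll genes passed, with r from −0.138 to 0.132.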

How the data were processed

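Poly(A) RNA from leaves of 100 rice lines was sequenced in 2022 and 2023 with a stranded kit, per the labels' protocols. The authors deposited 1 table of raw read counts per year, with 100 libraries each, and all 200 columns matched a labelled sample. Per the submitters' processing notes the build is IRGSP-1.0. Aligner and counter: not given in the sources used here, so they are not named. No library was identical to another (0 of 200).

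From these counts CPM was computed by column total, with a pseudocount of 0.5 on the log2 scale. The members, the gene lists and the tests were chosen with earlier results of these data known. The years were compared on all genes with edgeR 4.0.16 under R 4.3.3, by its quasi-likelihood test (filterByExpr by year, TMM factors, year as the sole term, Benjamini-Hochberg adjustment over 18674 genes, called at an adjusted p under 0.05). The SE of a change is its size over the square root of its F value. Log2 changes therefore rest on TMM scaling, and CPM values and counts of lines on column totals. Both libraries of a line carry its number, which so pairs them by design, and the fit with it as a replicate block was an alternative, as was DESeq2 1.42.0. The r between years used numba 0.67.0 with 100000 two-sided permutations per gene, adjusted over 10235 genes. Both procedures were tested on simulated data, in which genes were independent and no column trend was present. Those runs therefore do not cover the column trend and the correlated genes of these data.

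Of 161 planned pairs of gene name and locus, 95 were kept, because identifiers of this kind are absent from the RefSeq gene table used (assembly ASM3414082v1) and a pair was kept only if its symbol lies there on the same chromosome in a compatible order. Of 13 pairs added after values were seen 10 were kept. Genes were named by a fixed rule: the 15 members with the lowest score, the 8 largest rises and 8 largest falls that passed, every member with a name, the 3 genes on either side of the limit, the 5 highest and 5 lowest r between years and the 5 highest means. Os07g0529600, Os02g0173700, Os03g0644400, Os02g0815200 and Os03g0412800 fall outside it and were chosen after their values were seen, as extremes, exceptions or a neighbour. Sequences were not used here.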

Additional observations from a re-analysis of the deposited data

How the results depend on the processing

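Removing the column trend (27 of 100 genes chosen again), the 30 lines with the deepest 2022 libraries (46) and TMM scaling (50) moved the membership most. Spearman's rho (86), a minimum of 1 CPM (92), a pseudocount of 2 (99) and the other 70 lines (74) kept most of it. The counts of members lower and higher in 2023, 68 and 9, were 82 and 3 with column totals, 65 and 10 with DESeq2, 61 and 9 without the filter, 68 and 14 with column position as covariates, and 67 and 11 with the line number as replicate block. Of genes of at least 10 CPM, 37.4% were lower and 39.4% higher in the main fit. With column totals these shares were 55.4% and 23.2%, so all genes shifted. They were 36.6% and 40.3% with DESeq2 and 35.2% and 39.8% without the filter. With column position they were 37.4% and 40.3%, and with the line number as block 38.4% and 40.7%. The block pairs the libraries of a line and changed the call of 2 of the 47 members followed through the alternatives, Os07g0105600 (−0.11, adjusted p = 0.088) and CIPK10. Over all members 67 of the 68 lower calls and 8 of the 9 higher calls were shared with it. The counts were, in the 30 lines deepest in 2022, 19 and 38, in the other 70 lines 84 and 3, in the lower-numbered 50 lines 31 and 28, in the higher-numbered 50 lines 87 and 3, and with the OsLHY level as covariate 11 and 65. The shares of all genes in these settings are given in the Results. There were 16 members with a recurring difference between lines, against 26.2% of genes of at least 10 CPM. TMM scaling gave 10 against 23.4%, and the column trend removed gave 32 against 32.5%. The 30 lines gave 35 against 21.8%, and the other 70 lines gave 3 against 18.1%. The cause was not tested.

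Year differences of these 47 members, passing or not, took the other sign as follows. With the OsLHY level as covariate they were 0.21 for Os03g0322600, 0.14 for Os03g0300600, 0.68 for Os08g0425200, 0.57 for Os07g0105600, 0.086 for Os08g0344600, 0.073 for Os08g0545200, 0.10 for Os09g0530000, 0.13 for Os03g0695500, 0.12 for Os08g0483200, 0.42 for Os02g0507400, 0.63 for Os03g0411300, 0.12 for Os01g0676200, 0.17 for Os03g0351200, 0.32 for Os10g0496900, 0.014 for Os08g0532200, 0.37 for Os07g0678300, 0.19 for Os04g0596300, 0.24 for Os10g0510400, 0.12 for Os07g0608100, 0.27 for Os01g0817700, 0.038 for Os12g0624000, 0.18 for Os08g0481800, 0.18 for Os07g0558400, 0.23 for Os06g0320500, 0.20 for Os07g0577600 and 0.048 for Os01g0279100. In the 30 lines deepest in 2022 they were 0.088 for Os03g0322600, 0.34 for Os08g0425200, 0.38 for Os07g0105600, 0.029 for Os09g0530000, 0.018 for Os03g0695500, 0.26 for Os02g0507400, 0.17 for Os03g0411300, 0.078 for Os03g0351200, 0.25 for Os10g0496900, 0.38 for Os07g0678300, 0.0076 for Os04g0596300, 0.0082 for Os07g0608100, 0.073 for Os01g0817700, 0.18 for Os08g0481800, 0.15 for Os07g0558400, 0.19 for Os06g0320500, 0.17 for Os07g0577600 and 0.031 for Os01g0279100. In the other 70 lines they were −0.15 for Os03g0563300, −0.087 for Os03g0339900 and −0.13 for Os06g0132400. In the lower-numbered 50 lines they were 0.083 for Os03g0322600, 0.17 for Os08g0425200, 0.19 for Os07g0105600, 0.13 for Os02g0507400, 0.049 for Os03g0351200, 0.13 for Os10g0496900, 0.19 for Os07g0678300, 0.0022 for Os01g0817700, 0.079 for Os08g0481800, 0.080 for Os07g0558400, 0.13 for Os06g0320500 and 0.088 for Os07g0577600. In the higher-numbered 50 lines they were −0.0068 for Os01g0812900, −0.051 for Os09g0565200, −0.035 for Os02g0744900, −0.25 for Os03g0563300, −0.18 for Os03g0339900 and −0.21 for Os06g0132400. With column totals they were −0.0061 for Os02g0744900, −0.077 for Os03g0563300, −0.035 for Os03g0339900 and −0.078 for Os06g0132400. The r between years took the other sign in the 30 lines, at 0.19 for Os09g0270900, 0.15 for Os06g0132400, 0.48 for Os06g0715200 and 0.12 for Os08g0345400. With the column trend removed it did so at 0.11 for Os08g0345400.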
